A study of Caenorhabditis elegans with 15 samples.

Results

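The numbered col- genes are cuticle collagens of *C. elegans*, taken here as every gene whose WormBase symbol is col- followed by a number. The rule found 156 members among 46911 genes in the table, all annotated as protein coding. They lie on chromosomes I (21 members), II (24), III (12), IV (41), V (31) and X (27) of WBcel235, the assembly also named ce11. The name fits the cuticle collagens with 1 exception known from background, col-99, which encodes a transmembrane collagen.

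The cuticle is the collagen exoskeleton of the worm, secreted by the epidermis and replaced at each molt. Cuticle collagens are short secreted proteins with Gly-X-Y repeats, trimmed and cross-linked outside the cell, and different members are made at different stages and at different times within a molting cycle. The cuticle of the first larva (L1) is laid down in the late embryo, before hatching. Most numbered members have no role known from their own mutants, while many collagens known from mutants carry names for body shape (dpy, sqt, rol, bli, lon).

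RNA was sequenced from whole, starved L1 larvae of 5 groups with 3 libraries each, 15 in all. The mutants carry changes in *eff-1*, which encodes the fusogen that joins epidermal cells into the hyp7 syncytium, and the comparisons ask how its loss of function changes the larval transcriptome. P37Stop, a CRISPR allele with stop codons in exon 1, was made in animals with kuIs46 [ajm-1::GFP; unc-119(+)] and a nuclear reporter driven by the dpy-7 promoter, bqSi640, and was set against WT batch 2 of the same experiment. P183L (*eff-1*(hy21), strain BP76) and S441L (*eff-1*(oj55), strain WH171) come from classical mutagenesis screens, are described as apparent partial reduction-of-function alleles that may carry other mutations, are both listed with the array jcIs1, which holds ajm-1::GFP together with unc-29(+) and the marker rol-6(su1006), and were set against WT batch 1. Each mutant is 1 strain, replicates started from separate plates, and WT is N2 in the study's methods. Total counts per library ranged from 35858225 to 47820216.

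The targeted gene eff-1 averaged 10.3 TPM in P37Stop, against 12.6 TPM in WT batch 2, and 27.5 TPM in P183L and 18.5 TPM in S441L, against 13.6 TPM in WT batch 1, and point changes in its sequence cannot be checked by its level. Its log2 fold changes fitted by edgeR were -0.52 in P37Stop, 0.15 in P183L and 0.20 in S441L. Only that of P37Stop was past the limit of 0.5 used below. Transgene markers did not all follow the listed strains. The mean level of rol-6 was 3.00 TPM in P183L and 532 TPM in S441L, against 0.532 TPM in WT batch 1, so the libraries labelled P183L lacked the level seen in S441L. That of unc-119 was 1502 TPM in P37Stop and 1003 TPM in WT batch 2, and 113 TPM in P183L and 36.6 TPM in S441L, against 33.8 TPM in WT batch 1. The junction gene ajm-1 averaged 427 TPM in P37Stop and 294 TPM in WT batch 2, and 260 TPM in P183L and 715 TPM in S441L, against 106 TPM in WT batch 1. Its fitted log2 fold changes were 0.31 in P37Stop, 0.42 in P183L and 2.51 in S441L, each against its WT. The 2 WT groups thus differed in these genes, and experiment and strain cannot be told apart in a comparison of WT batch 2 with WT batch 1.

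Levels are given as TPM (counts divided by exon length and scaled to the same sum in every library), which allows genes to be compared within a library. A gene was called higher or lower where edgeR's quasi-likelihood test gave a Benjamini-Hochberg adjusted p below 0.05 together with a log2 fold change of more than 0.5 in either direction. Fold changes were scaled to the middle of all genes by TMM, while TPM were not. The median TPM ratio of all genes tested was 1.19 for P37Stop, 1.86 for P183L and 1.20 for S441L, each against its WT, so a TPM ratio overstates a rise, and understates a fall, relative to the fitted change. In whole animals, fewer cells of a type and less RNA per cell cannot be told apart.

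For 33 members the deposited counts were not whole numbers in at least 8 of the 15 libraries, as occurs where reads are split between similar sequences. Values of single members of this kind are uncertain, and they include col-3, col-10, col-12, col-13, col-92, col-93, col-94, col-117, col-125, col-144, col-145, col-147, col-153, col-157, col-160, col-166, col-167, col-168, col-169, col-170 and col-180. Many others overlap exons of another protein-coding gene, among them col-8 (lgc-38), col-74 (gtap-1), col-99 (daf-1), col-103 (gst-40), col-121 (daf-15) and col-124 (qns-1). So do col-53 (F55F8.2), col-97 (ZK1010.12), col-111 (psr-1), col-113 (C34D4.4), col-115 (rig-4), col-116 (F17E9.2), col-142 (T15B7.14), col-143 (T15B7.15) and col-156 (mig-17). Whether the counting used strand is not given in the sources used here, so their values may hold reads of the overlapping gene. Counts were not whole in 7 libraries for col-80 and col-103 and in 6 for col-107 and col-130, just under the limit of 8.

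The starved L1 larva used a small part of the family at high level. Of the 156 members, 76 reached 1 TPM in both WT groups, 49 reached 5 TPM and 17 reached 100 TPM. In 46 members the mean stayed below 1 TPM in every one of the 5 groups, 11 had under 10 counts in every library, and 4 had no count in any of the 6 WT libraries. In each WT group, 13 members made up 90% of the summed TPM of the family. That number was 17 in P37Stop, 22 in P183L and 19 in S441L.

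The 17 members at 100 TPM or more in both WT groups held 96.4% of the family's TPM in WT batch 2 and 95.0% in WT batch 1. By mean TPM in WT batch 2 and WT batch 1 they were col-3 (4253 and 2083), col-117 (3974 and 1972), col-166 (3271 and 1626), col-42 (2941 and 3111), col-10 (2596 and 1378), col-98 (2045 and 1447), col-107 (2010 and 1782), col-94 (1777 and 1112), col-103 (1772 and 1166), col-160 (1747 and 1749), col-147 (1358 and 968), col-144 (1338 and 331), col-39 (850 and 1260), col-80 (583 and 430), col-167 (524 and 219), col-118 (290.5 and 1124) and col-91 (128 and 112). No member took more than 14.2% of the family in any WT library, so the pool was spread over many genes rather than carried by 1. Their coding lengths ranged from 834 to 1113 bases with a median of 903, close to the median of 912 over the other 139 members. Genes of 2 exons made up 70.6% of these 17 and 44.6% of the others, and no test was made of that difference because the levels chose the members.

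The WT groups themselves differed in the level of many members. In WT batch 2 against WT batch 1, 111 members were tested, of which 42 (37.8%) were higher and 22 (19.8%) lower, where 18.6% of all genes tested were called higher and 14.3% lower. Without the members with split reads, 21 of 80 were higher and 21 lower, so the excess of higher calls lay in the members with split reads. Among the 17 abundant members 11 were higher, 1 was lower (col-118) and 5 were not called. The largest of these differences were those of col-144 (log2 fold change 2.14 ± 0.11, SE) and col-118 (-1.83 ± 0.09), with adjusted p of 1.91e-08 and 1.45e-08 in edgeR's quasi-likelihood test. The calls of col-80 and col-147 fell under the fold limit, at 0.46 to 0.50, without WT batch 2 replicate 1, and that of col-80 also without WT batch 1 replicates 1 or 3.

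As a share of the TPM of all genes, the family took 2.15, 2.28 and 2.52% in P37Stop, against 3.65, 3.07 and 3.06% in WT batch 2. It took 0.426, 0.431 and 0.467% in P183L and 3.11, 3.22 and 2.90% in S441L, against 2.09, 2.66 and 2.16% in WT batch 1. The ranges of each mutant and its WT did not overlap, with ratios of means of 0.709 for P37Stop, 0.192 for P183L and 1.34 for S441L. The P37Stop mean of 2.31% ± 0.18 (SD, n = 3) lay beside that of WT batch 1, 2.30% ± 0.31, and below that of WT batch 2, 3.26% ± 0.34, so its fall rested on the WT group of its own experiment.

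The rise of the summed share in S441L lay in the members with split reads. They took 2.13% ± 0.10 in S441L (SD, n = 3), against 1.17% ± 0.14 in WT batch 1. The other 123 members took 0.948% ± 0.058 in S441L, against 1.13% ± 0.17 in WT batch 1, so that the sum over these was lower in S441L. Likewise the 123 members took 1.13% ± 0.11 in WT batch 2, against 1.13% ± 0.17 in WT batch 1, while those with split reads took 2.14% ± 0.23 and 1.17% ± 0.14. In P37Stop both sets were below WT batch 2 (1.44% ± 0.16 against 2.14% ± 0.23, and 0.877% ± 0.024 against 1.13% ± 0.11), and in P183L both were below WT batch 1 (0.108% ± 0.008 against 1.17% ± 0.14, and 0.333% ± 0.014 against 1.13% ± 0.17).

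**Figure D1:**
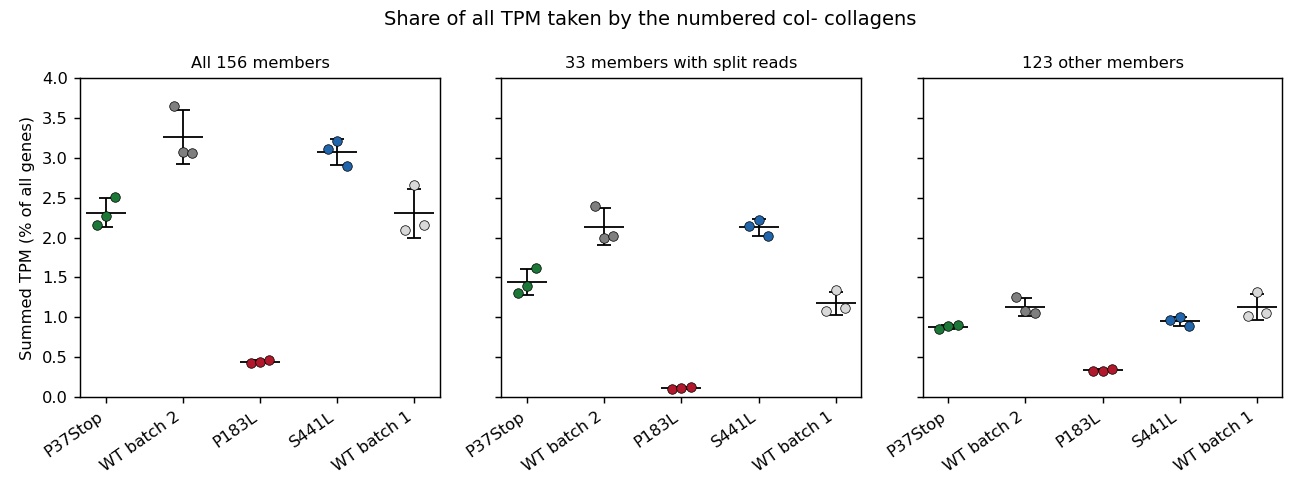
Summed TPM of the numbered col- collagens as a percentage of the TPM of all genes (vertical axis), for all 156 members, the 33 members with split reads and the 123 others. Points are libraries, horizontal lines group means and bars SD over 3 libraries. P183L sits lowest in each panel, at 0.426 to 0.467% for all members, and the S441L libraries lie above WT batch 1 in the first and middle panels and below it in the last.

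In P37Stop the abundant L1 members fell and members of middle level rose. Of 114 members tested, 31 (27.2%) were higher and 20 (17.5%) lower than in WT batch 2, where 12.7% of all genes tested were higher and 5.9% lower. To keep the level apart from the change, members were sorted by their mean TPM in WT batch 1, whose libraries this comparison did not use. Of 19 members at 100 TPM or more, 15 fell, 1 rose (col-165) and 3 were not called, with a median log2 fold change of -0.77. Of 23 members from 10 to 100 TPM, 14 rose and 3 fell (median 0.92). Below that, 11 of the 41 tested from 1 to 10 TPM rose and 2 fell, and 5 of the 31 tested below 1 TPM rose and none fell. A member could pass the filter on low counts through its higher group alone, and 100 members passed it in all 3 mutants and 26 in none. The median of all genes tested was 0.02.

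In P183L the abundant members fell by far more. Of 116 members tested, 36 (31.03%) were higher and 62 (53.4%) lower than in WT batch 1, where 40.2% of all genes tested were higher and 40.2% lower. All 18 members at 100 TPM or more in WT batch 2, the WT group this comparison did not use, fell, by log2 fold changes from -11.21 to -1.99 (median -6.24). Of 25 members from 10 to 100 TPM, 15 fell and 3 rose (median -0.99). Of the 39 tested from 1 to 10 TPM, 16 fell and 14 rose (median -0.17), and of the 34 tested below 1 TPM, 13 fell and 19 rose (median 1.27). Members of this lowest class could pass the filter on low counts through their higher group alone. Their directions and median were thus partly set by the filter and are not read as a trend with level. The share called higher, 31.03%, was under the background of 40.2%.

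S441L differed again, with rises over most levels and a mixed top. Of the members tested, 56 (51.9%) were higher and 25 (23.1%) lower than in WT batch 1, and 27 were not called, where 24.2% of all genes tested were higher and 15.8% lower. Of the 18 members at 100 TPM or more in WT batch 2, 5 rose, 6 fell and 7 were not called (median 0.27). Of 25 members from 10 to 100 TPM, 18 rose and 5 fell (median 1.91). From 1 to 10 TPM, 23 of the 39 tested rose and 7 fell (median 0.88), and below 1 TPM 10 of the 26 tested rose and 7 fell (median 0.32). The same limit from the filter holds for the members below 1 TPM here. Without the members with split reads, 36 of 77 were higher and 23 lower in S441L, 26 of 83 higher and 11 lower in P37Stop, and 30 of 85 higher and 39 lower in P183L.

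Set directly against S441L, P183L had 32 members higher and 74 lower of 115 tested, where 38.1% of all genes tested were higher and 40.4% lower. All 17 abundant members were lower, with log2 fold changes from -10.45 to -3.79. The median over the members tested was -2.30, against -0.02 over all genes tested.

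**Figure D2:**
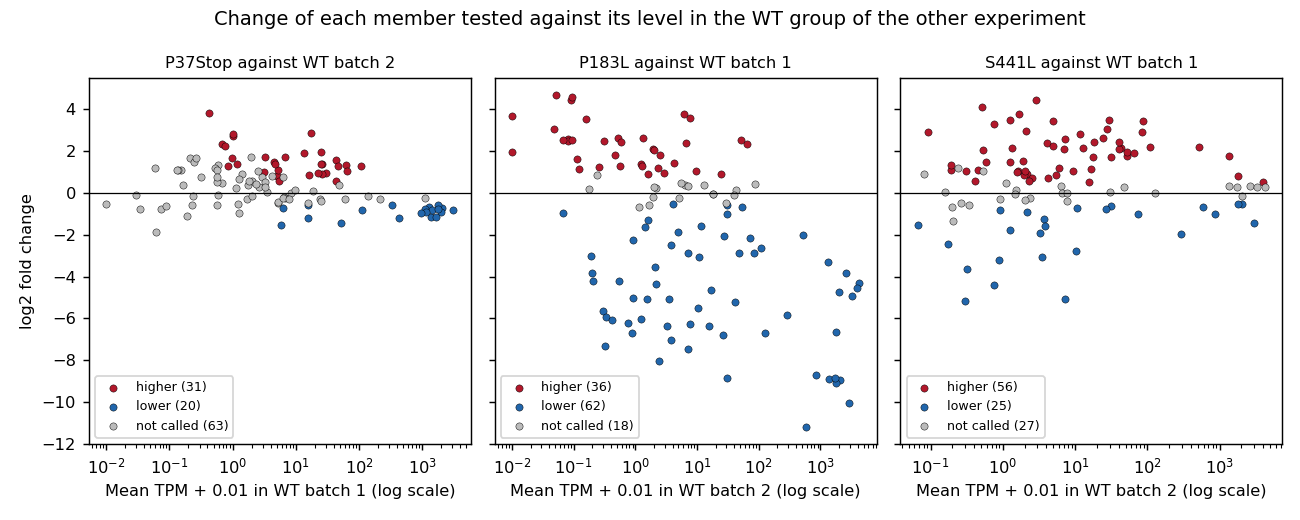
Log2 fold change of each member tested (vertical axis) against its mean TPM plus 0.01, on a log axis, in the WT group of the other experiment. Panels show P37Stop against WT batch 2, then P183L and S441L against WT batch 1, with called members in red (higher) and blue (lower) and the rest in grey. The most abundant members lie just under 0 in P37Stop, between about the middle and the foot of the axis in P183L, and around 0 in S441L.

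The most abundant member of WT batch 1, col-42 (WBGene00013489, chromosome V from 18638484 to 18639591, plus strand, 2 exons), had no sign of split reads. It had 1785, 1999 and 2069 TPM in P37Stop, against 3236, 2793 and 2793 TPM in WT batch 2. It had 5.23, 4.79 and 6.08 TPM in P183L and 1355, 1472 and 1217 TPM in S441L, against 2740, 3783 and 2810 TPM in WT batch 1. The mutant libraries lay below every library of their WT group in all 3 comparisons, and those of P183L below all others. The log2 fold changes were -0.83 ± 0.12 in P37Stop, -10.06 ± 0.18 in P183L and -1.45 ± 0.12 in S441L (SE), with adjusted p of 0.000512, 4.19e-14 and 2.35e-07 (edgeR quasi-likelihood). Its level did not differ detectably between WT batch 2 and WT batch 1 (0.04 ± 0.14, adjusted p = 0.829 in the same test). It was among the 5 of 17 abundant members not called there. The abundant members col-3, col-117, col-166 and col-10, all with split reads, were called higher in WT batch 2.

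The member col-80 (chromosome II from 10707201 to 10708287) was also lower in all 3 mutants, and its fall in P183L was the largest of any member tested there. Unlike col-42, it fell more in P37Stop than in S441L. P37Stop libraries had 255, 339 and 289 TPM, against 603, 571 and 575 TPM in WT batch 2. P183L libraries had 0.429, 0.209 and 0.335 TPM and S441L libraries 315, 329 and 308 TPM, against 393, 485 and 413 TPM in WT batch 1. No mutant library reached its WT range, and in P183L the transcript was down to 11, 5 and 8 counts. The log2 fold changes were -1.21 ± 0.12 in P37Stop, -11.21 ± 0.17 in P183L and -0.68 ± 0.08 in S441L (adjusted p = 6.86e-05, 9.20e-15 and 5.47e-06, edgeR quasi-likelihood).

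A different pattern held for col-8 (chromosome III from 7019583 to 7020600), whose level differed between the WT groups. It had 10.8, 7.60 and 14.9 TPM in P37Stop, against 5.59, 8.67 and 7.36 TPM in WT batch 2. It had 0.264, 0.567 and 0.662 TPM in P183L and 2.03, 1.85 and 1.11 TPM in S441L, against 41.97, 55.3 and 45.5 TPM in WT batch 1. The P37Stop and WT batch 2 ranges overlapped (0.38 ± 0.24, adjusted p = 0.272), while P183L (-7.45 ± 0.20, adjusted p = 1.83e-12) and S441L (-5.07 ± 0.17, adjusted p = 3.68e-11) lay far below their WT in edgeR's quasi-likelihood test. WT batch 2 itself was lower than WT batch 1 (-2.61 ± 0.15, adjusted p = 8.08e-08, same test). The same arrangement was found for col-181 (3.49 TPM in WT batch 2 and 18.9 TPM in WT batch 1) and col-153 (10.2 and 61.1 TPM), called lower in S441L and not called in P37Stop.

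In contrast, col-108 was low in both WT groups and rose in P37Stop and S441L. It had 12.97, 13.5 and 10.7 TPM in P37Stop, against 0.860, 0.804 and 0.540 TPM in WT batch 2. It had 0, 0.133 and 0.177 TPM in P183L and 4.71, 4.58 and 4.87 TPM in S441L, against 0.212, 0.464 and 0.551 TPM in WT batch 1. The groups did not overlap in either called comparison, with log2 fold changes of 3.84 ± 0.29 in P37Stop (adjusted p = 1.62e-05, edgeR quasi-likelihood) and 3.28 ± 0.26 in S441L. Against WT batch 1 it passed the filter on low counts through the S441L libraries alone, at 161, 156 and 155 counts. P183L had 0, 3 and 4 counts and WT batch 1 had 7, 13 and 19, and the gene did not pass the filter on low counts there.

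**Figure D3:**
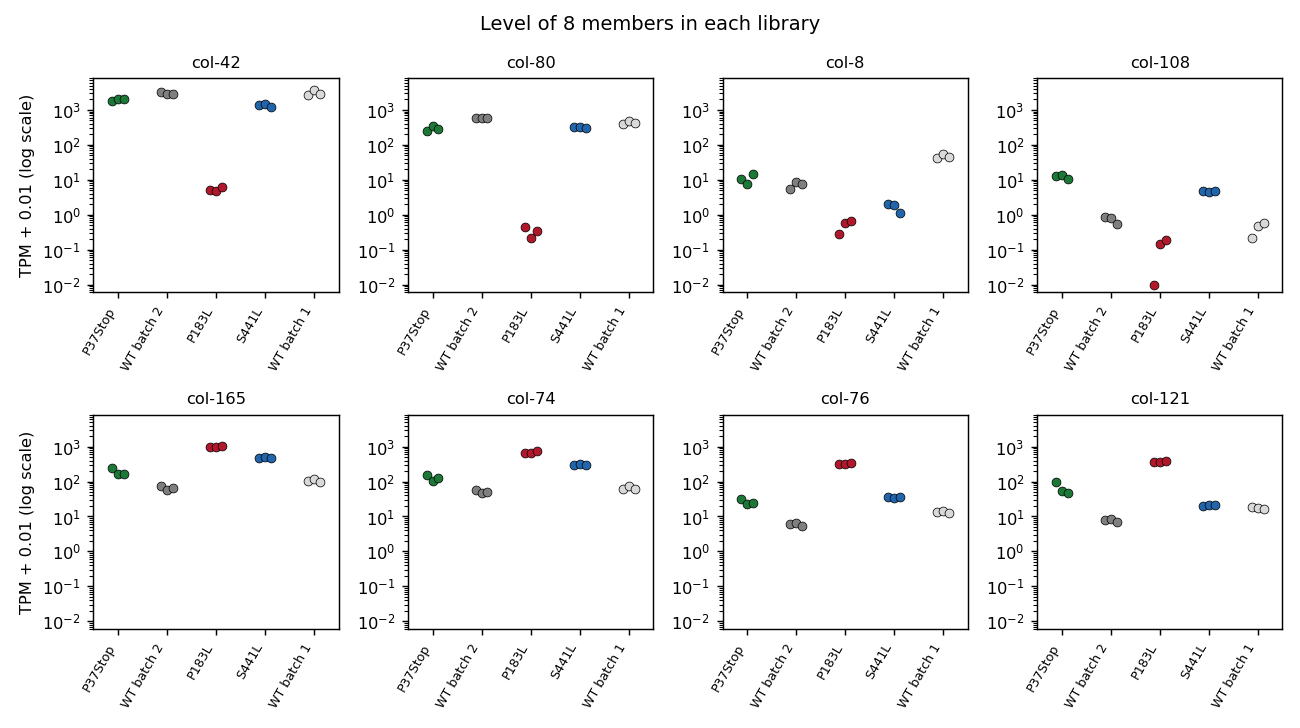
TPM plus 0.01, on a log axis, of 8 members in each of the 15 libraries, one point per library. The upper row holds col-42, col-80, col-8 and col-108 and the lower row col-165, col-74, col-76 and col-121. In P183L col-42 fell to about 5 TPM and col-80 below 1 TPM, while the 4 members of the lower row were at their highest there.

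The rest of the abundant set split by mutant. In P37Stop the highest member, col-3, had 2829, 3166 and 3242 TPM, against 4522, 4250 and 3988 TPM in WT batch 2 (log2 fold change -0.70 ± 0.11, adjusted p = 0.00104). The next, col-117, had 2223, 2410 and 2839 TPM in P37Stop, against 4566, 3611 and 3744 TPM in WT batch 2 (-0.92 ± 0.13, adjusted p = 0.000586, edgeR quasi-likelihood for both). Neither gene's P37Stop libraries reached the WT batch 2 range. The other falls among the 12 most abundant members ran from -0.57 (col-107) to -1.17 (col-166). Without WT batch 2 replicate 1 the value of col-107 was -0.39, under the fold limit. With WT batch 1 in place of WT batch 2, 3 of these 12 were called lower in P37Stop (col-39, col-42 and col-160) and none higher, and col-3 and col-117 turned to 0.35 and 0.12, neither called.

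In P183L the size of the fall divided the abundant members. The mean of col-160 was 6.92 TPM in P183L, against 1749 TPM in WT batch 1 (-8.86 ± 0.10), that of col-103 was 3.92 against 1166 TPM (-9.10 ± 0.16) and that of col-98 was 5.49 against 1447 TPM (-8.92 ± 0.17). In contrast, col-10 kept 179 TPM in P183L, against 1378 TPM in WT batch 1 (-3.82 ± 0.10), col-3 kept 195 against 2083 TPM (-4.30 ± 0.14) and col-167 kept 101 against 219 TPM (-1.99 ± 0.10). The members that kept more TPM, col-3, col-10, col-117, col-107, col-166, col-144 and col-167, include 6 with split reads, whose counts may hold reads of related genes. Reads were also split in col-160, col-147 and col-94. Their mean counts were 182, 105 and 488 in P183L, against 62990, 36580 and 36370 in WT batch 1. The part of split reads in the size of the fall was not tested. Adjusted p for the 17 abundant members in P183L were at most 7.17e-10 in edgeR's quasi-likelihood test, and no P183L library overlapped WT batch 1.

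In S441L the abundant members went both ways, with 4 of 17 higher, 6 lower and 7 not called. The mean of col-3 was 2977 TPM in S441L, against 2083 TPM in WT batch 1 (0.27 ± 0.11, not called), and that of col-107 was 1898 against 1782 TPM (-0.15 ± 0.11, not called). The gene col-144 had 1356, 1418 and 1299 TPM in S441L, against 307, 368 and 320 TPM in WT batch 1, a rise of 1.79 ± 0.08 (adjusted p = 2.76e-10, edgeR quasi-likelihood). In the same direction, col-167 rose by 2.18 ± 0.10 and col-94 by 0.83 ± 0.08. Lower in S441L were col-118 (-1.97 ± 0.07), col-42, col-39 (-0.99 ± 0.07), col-80, col-98 (-0.53 ± 0.11) and col-103 (-0.53 ± 0.10). The values for col-98 and col-103 were -0.46 and -0.47 without S441L replicate 3 and -0.36 and -0.37 without WT batch 1 replicate 2, and that of col-117, called higher at 0.53, was 0.46 to 0.50 without S441L replicate 2 or WT batch 1 replicates 1 or 3.

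**Figure D4:**
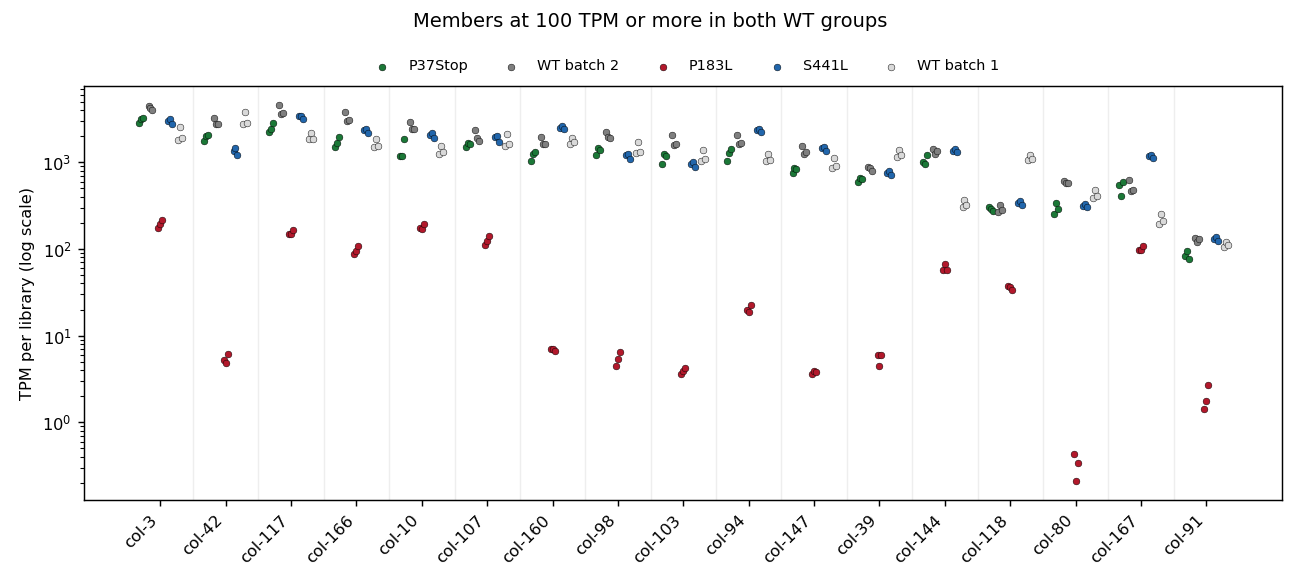
TPM in each library, on a log axis, of the 17 members at 100 TPM or more in both WT groups, ordered by their mean over both. Points are libraries, coloured by group. Within 1 member the P37Stop, WT batch 2, S441L and WT batch 1 points lie within 1 power of 10, and the P183L points lie below them, from 0.209 TPM in col-80 to 218 TPM in col-3.

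A small set of other members led the much smaller pool of P183L. The leading member there, col-165 (188, 65.2, 989, 472 and 106 TPM on average in P37Stop, WT batch 2, P183L, S441L and WT batch 1), held 21.9 to 22.9% of the family's TPM in the P183L libraries. It had 974, 972 and 1021 TPM in P183L and 464, 491 and 460 TPM in S441L, against 105, 115 and 98.0 TPM in WT batch 1. It had 240, 163 and 162 TPM in P37Stop, against 73.8, 58.1 and 63.5 TPM in WT batch 2. All mutant libraries stood above their WT, with log2 fold changes of 1.30 ± 0.18 in P37Stop, 2.35 ± 0.06 in P183L and 1.91 ± 0.07 in S441L (adjusted p = 0.000424, 1.81e-12 and 5.43e-11, edgeR quasi-likelihood).

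The gene col-74 had 672, 670 and 748 TPM in P183L and 305, 311 and 295 TPM in S441L, against 63.1, 73.5 and 59.9 TPM in WT batch 1. It had 155, 102 and 128 TPM in P37Stop, against 58.2, 47.9 and 49.9 TPM in WT batch 2. Its log2 fold changes were 1.07 ± 0.15 in P37Stop, 2.54 ± 0.08 in P183L and 1.97 ± 0.08 in S441L, with adjusted p of 0.000549, 9.14e-12 and 1.39e-10 (edgeR quasi-likelihood). In each comparison the mutant and its WT were apart. For col-76 the same 3 values were 1.90 ± 0.16, 3.76 ± 0.05 and 1.17 ± 0.06, with 323, 328 and 337 TPM in the P183L libraries, against 13.5, 13.9 and 12.6 TPM in WT batch 1.

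Unlike these, col-121 rose in P37Stop and P183L and was not called in S441L. It had 94.4, 52.3 and 48.4 TPM in P37Stop, against 7.69, 8.20 and 6.97 TPM in WT batch 2 (2.87 ± 0.25, adjusted p = 3.49e-05). P183L libraries had 375, 376 and 401 TPM and S441L libraries 19.97, 21.1 and 21.1 TPM, against 18.5, 17.6 and 16.4 TPM in WT batch 1 (3.59 ± 0.05, adjusted p = 1.05e-14 for P183L, and 0.01 ± 0.07, adjusted p = 0.920 for S441L, edgeR quasi-likelihood). It was the single member tested in all 3 mutants with this profile.

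The transmembrane collagen col-99, known for a part in motor axon guidance, moved in P183L. It had 59.98, 63.3 and 70.2 TPM in P183L and 7.94, 7.75 and 8.12 TPM in S441L, against 6.03, 7.11 and 6.89 TPM in WT batch 1 (2.40 ± 0.08, adjusted p = 9.80e-12 for P183L, and 0.01 ± 0.08, adjusted p = 0.916 for S441L). P37Stop had 6.59, 6.29 and 7.03 TPM, against 7.91, 6.44 and 5.32 TPM in WT batch 2, ranges that overlapped (-0.22 ± 0.17, adjusted p = 0.361, edgeR quasi-likelihood).

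Among the 100 members tested in all 3 mutants, profiles can be given as the direction in P37Stop, P183L and S441L in turn. P183L and S441L were set against the same WT batch 1 libraries, so a like direction in these is partly built in and is listed without being read as agreement. Higher in all 3 were 12 members, col-33, col-65, col-68, col-74, col-75, col-76, col-89, col-111, col-131, col-157, col-165 and col-172. Lower in all 3 were 8, col-39, col-42, col-80, col-98, col-103, col-142, col-150 and col-176. Over all 14835 genes tested in all 3 mutants, 4.56% were higher in each and 2.00% lower in each, where the members' shares were 12% and 8%. The TPM of every mutant lay outside the range of its WT in the 12 members that were higher and in 6 of the 8 that were lower, and col-142 and col-150 overlapped between P37Stop and WT batch 2. The P37Stop calls of col-33, col-75, col-157, col-142 and col-150 were each lost without 1 or more single libraries, and with all libraries in 1 fit col-75 lost its call in S441L (1.04, adjusted p = 0.154, edgeR quasi-likelihood).

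For col-33 these were P37Stop replicates 1 and 2 and WT batch 2 replicates 2 and 3 (log2 fold changes of 1.14 to 1.38, adjusted p of 0.0662 to 0.106). For col-75 they were all 3 P37Stop libraries and WT batch 2 replicates 2 and 3 (1.79 to 2.50, 0.0591 to 0.141), and for col-157 P37Stop replicates 1 and 3 and WT batch 2 replicates 2 and 3 (0.91 to 1.33, 0.0815 to 0.209). For col-142 they were P37Stop replicate 1 and WT batch 2 replicates 1 and 3 (-0.58 to -0.41, 0.0648 to 0.0925), and for col-150 P37Stop replicates 1 and 2 and WT batch 2 replicates 1 and 2 (-0.72 to -0.57, 0.101 to 0.155). In S441L col-142 was at -0.48 without WT batch 1 replicate 2. All p are from edgeR's quasi-likelihood test.

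In 17 other members the call was higher in both P37Stop and S441L and not in P183L. Higher in P37Stop and S441L and lower in P183L were 8 members, col-12, col-14, col-58, col-97, col-106, col-124, col-146 and col-156. Higher in P37Stop and S441L and not called in P183L were 9, col-48, col-54, col-77, col-104, col-109, col-113, col-115, col-125 and col-130. For instance, col-125 had 307, 197 and 264 TPM in P37Stop, against 109, 72.3 and 80 TPM in WT batch 2 (1.31 ± 0.19, adjusted p = 0.000647), and 585, 621 and 550 TPM in S441L, against 45.6, 49.6 and 43.5 TPM in WT batch 1 (3.42 ± 0.07, adjusted p = 9.11e-13, edgeR quasi-likelihood). It was chosen as an example after its values were seen.

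Of this kind, col-109 rose by 1.95 ± 0.23 in P37Stop and 2.17 ± 0.05 in S441L, with 0.40 ± 0.07 in P183L, under the fold limit. The rise of col-124 was 2.81 ± 0.32 in P37Stop and 2.99 ± 0.18 in S441L, while P183L had 3, 5 and 4 counts, against 27, 34 and 48 in WT batch 1. For col-106 P37Stop was at 2.73 ± 0.42 and S441L at 2.04 ± 0.18, and P183L had 3, 2 and 1 counts, against 26, 28 and 34 in WT batch 1. The P37Stop call of col-130 (0.84 ± 0.23) was lost without P37Stop replicates 1 or 3 or WT batch 2 replicates 2 or 3 (0.67 to 0.79, adjusted p of 0.0604 to 0.0900, edgeR quasi-likelihood), while its P183L value was called lower, at -0.55 to -0.51, without P183L replicate 3 or WT batch 1 replicate 3.

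Members not called in P37Stop made up the other large groups. There were 13 lower in both P183L and S441L, col-8, col-34, col-50, col-62, col-95, col-116, col-118, col-120, col-129, col-143, col-151, col-153 and col-181, and 10 that were lower in P183L and higher in S441L, col-44, col-92, col-141, col-145, col-159, col-167, col-168, col-169, col-170 and col-184. Without P37Stop replicate 2, col-145 was called in P37Stop as well (1.13). The gene col-92 had 42.1, 51.2 and 53.6 TPM in P37Stop, against 45.4, 43.4 and 34.1 TPM in WT batch 2. It had 0.538, 0.1595 and 0.520 TPM in P183L and 43.7, 42.6 and 38.7 TPM in S441L, against 7.22, 9.83 and 7.84 TPM in WT batch 1. Its S441L libraries thus lay at the level of WT batch 2, 2.09 ± 0.11 above WT batch 1 on the log2 scale, and WT batch 2 was 2.43 ± 0.16 above WT batch 1 (adjusted p = 1.98e-09 and 1.63e-07, edgeR quasi-likelihood). The largest rise in S441L among members of at least 10 CPM (counts scaled to the library total) was that of col-180 (4.45 ± 0.15), at 36.6, 37.98 and 33.2 TPM in S441L, against 1.02, 1.83 and 1.39 TPM in WT batch 1.

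Lower in P37Stop and P183L were 8 members with S441L not called (col-3, col-10, col-91, col-101, col-107, col-147, col-160 and col-166) and 4 with S441L higher (col-93, col-94, col-117 and col-144). In col-94 the libraries had 1028, 1265 and 1415 TPM in P37Stop, against 2069, 1608 and 1652 TPM in WT batch 2, and 19.9, 18.6 and 22.7 TPM in P183L and 2362, 2435 and 2224 TPM in S441L, against 1031, 1251 and 1055 TPM in WT batch 1. The P37Stop libraries were thus lower than their own WT and close to the WT group of the other experiment. The S441L call of col-93 (0.55 ± 0.14) fell under the fold limit without S441L replicate 1 or WT batch 1 replicate 1, at 0.43 to 0.49. Called in P183L and in neither other mutant were 12 members (7 lower and 5 higher, with col-99 among these), and 6 were higher in P183L and S441L. Called in S441L and in neither other mutant were 5 (3 higher and 2 lower), and 4 members were called in none of the 3, col-38, col-53, col-79 and col-105. Without WT batch 1 replicate 1, col-38 was called at 1.48 in P183L and 1.82 in S441L.

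Members known for later stages were near the floor in all groups. The adult collagens were col-19, at most 1.90 TPM in any group mean, and col-7, at most 0.405 TPM. Of the collagens known from the last larval stage, col-38 reached 1.01 TPM and col-63 1.12 TPM, both in P183L, and col-49 had no count outside 1 P37Stop library. The dauer collagens col-2 and col-40 stayed at or below 0.275 TPM and 0.1604 TPM. The larval col-17 had 1.14, 0.832 and 0.825 TPM in P183L, against 0.109, 0 and 0 TPM in WT batch 1 (3.68 ± 0.70). It had 31, 21 and 21 counts in P183L, against 4, 0 and 0, and passed the filter on low counts through P183L alone. Of the 11 names on this stage list, 1 (col-6) is no member symbol in the annotation.

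Within this list col-19 stood out for its WT groups. It had 0.193, 0.497 and 0.235 TPM in WT batch 2, 0.0435, 0 and 0 TPM in P183L and 0.124, 0.248 and 0.166 TPM in S441L, against 2.17, 2.22 and 1.32 TPM in WT batch 1. WT batch 2 was lower than WT batch 1 by edgeR's quasi-likelihood test (-2.50 ± 0.49, adjusted p = 0.00120), as was S441L (-3.61 ± 0.39, adjusted p = 3.04e-06). P183L had 1 count over its 3 libraries, and the high group was WT batch 1 alone. The S441L call of col-63 (-2.42 ± 0.74) was lost without WT batch 1 replicate 3 (-1.70, adjusted p = 0.111).

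The molt collagens col-12 and col-13, known to be made at every molt, lie next to each other on chromosome V (10420788 to 10425198) and differed in level. The levels of col-12 were 173, 114 and 153 TPM in P37Stop, against 97.2, 80.6 and 73.8 TPM in WT batch 2. They were 9.88, 11.2 and 11.9 TPM in P183L and 389, 394 and 383 TPM in S441L, against 41.5, 47.5 and 40.6 TPM in WT batch 1. P183L lay below and S441L far above the WT range (-2.85 ± 0.09, adjusted p = 1.04e-11, and 2.93 ± 0.07, adjusted p = 1.82e-12, edgeR quasi-likelihood). The P37Stop value of 0.57 ± 0.16 was called, and was lost without P37Stop replicate 1 or WT batch 2 replicates 2 or 3 (0.39 to 0.51, adjusted p of 0.0803 to 0.107). Its neighbour col-13 was at or below 2.65 TPM in every group mean, with S441L higher than WT batch 1 (4.10 ± 0.60). It had 96, 117 and 75 counts in S441L, against 1, 12 and 0 in WT batch 1, and passed the filter on low counts through S441L alone.

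Neighbouring members did not share 1 level, and some shared a profile. There were 21 groups of members less than 10 kb apart, holding 50 members. On chromosome II from 10703613 to 10708287, col-39 and col-80 had 1260 and 430 TPM in WT batch 1 and were lower in all 3 mutants, while col-79 beside them had 0.563 TPM and was called in none. On chromosome X from 6323488 to 6335221, col-167, col-168, col-169 and col-170 had 219, 25.3, 9.58 and 2.06 TPM in WT batch 1 and had 1 profile, lower in P183L, higher in S441L and not called in P37Stop, and col-171 had none. All 4 have split reads, which 1 source of reads would also align. On chromosome III from 10982139 to 10987873, col-92, col-93 and col-94 had 8.30, 5.92 and 1112 TPM in WT batch 1, and each was lower in P183L and higher in S441L.

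Collagens outside the numbered series moved in the opposite direction from the abundant members in P183L. The furrow collagens dpy-2, dpy-3, dpy-7, dpy-8, dpy-9 and dpy-10 form the circumferential furrows of the cuticle. Their summed level averaged 153 TPM in P37Stop, against 22.2 TPM in WT batch 2, and 1778 TPM in P183L and 73.6 TPM in S441L, against 56.1 TPM in WT batch 1. Of those tested, 4 of 5 were higher in P37Stop, 6 of 6 in P183L and 0 of 4 in S441L, and none was lower. Among all genes tested, 12.7% were higher in P37Stop, 40.2% in P183L and 24.2% in S441L. In WT batch 2 against WT batch 1, 4 of 5 furrow collagens tested were lower and 1 higher. The rise in P37Stop was thus over the lower of the WT groups. For dpy-10 the log2 fold changes were 2.54 in P37Stop, 4.401 in P183L and 0.26 in S441L.

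Of 15 other collagens named for body shape, 14 matched a gene ID, and their sum was 1248 TPM in P37Stop, against 221 TPM in WT batch 2, and 15660 TPM in P183L and 1378 TPM in S441L, against 608 TPM in WT batch 1. Higher were 3 of 10 tested in P37Stop, 8 of 9 in P183L (1 lower, dpy-5) and 3 of 7 in S441L (1 lower, dpy-5). The shares of all genes higher were 12.7% in P37Stop, 40.2% in P183L and 24.2% in S441L. Those lower were 40.2% in P183L and 15.8% in S441L. Of 9 tested in WT batch 2 against WT batch 1, 4 were lower and 1 higher. Most of the P183L sum came from dpy-17 (6051 TPM, against 217 TPM in WT batch 1), dpy-14 (4935 against 177 TPM) and sqt-3 (4642 against 207 TPM), which are needed for normal body length and shape. In P183L the numbered family summed to 4259 to 4670 TPM, under the 15100 to 16600 TPM of these genes, whereas in every other group the numbered family was the larger.

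**Figure D5:**
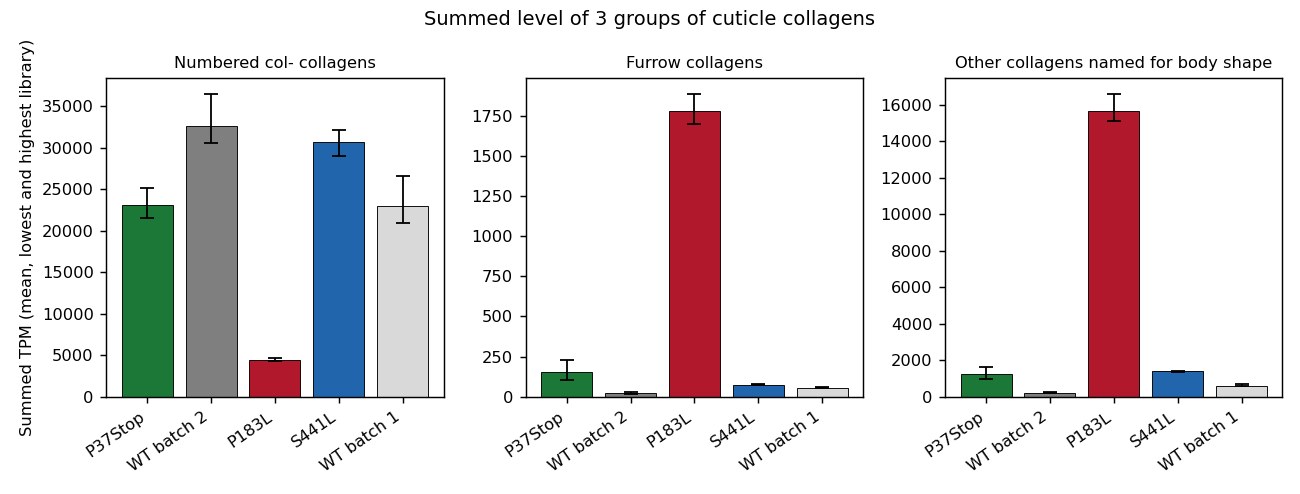
Summed TPM of the numbered col- collagens, the 6 furrow collagens and the other collagens named for body shape, by group (bars are means of 3 libraries, lines run from the lowest to the highest library, and each panel has its own axis from 0). P183L has the lowest bar in the first panel and the highest in the other panels.

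Of 14 genes listed for collagen processing and cross-linking, not all of them enzymes, 5 were higher and 1 lower in P37Stop. In P183L 5 were higher and 3 lower, and in S441L 5 were higher and 1 lower. Among all genes tested, 12.7% were higher and 5.9% lower in P37Stop, 40.2% and 40.2% in P183L, and 24.2% and 15.8% in S441L, so the P183L counts were not above those of all genes. The prolyl hydroxylase subunits dpy-18 and phy-2 rose in P183L, by 2.81 and 3.71 on the log2 scale, while mlt-7, a peroxidase needed for molting, fell to 12.1 TPM in P183L, against 141 TPM in WT batch 1. The basement membrane collagens emb-9, let-2 and cle-1 were not called in P37Stop or S441L, and in P183L let-2 was higher (0.61) and cle-1 lower (-1.18). Among regulators of the epidermis, nhr-23, a nuclear receptor of the molting cycle, was higher in P183L (64.4 TPM, against 5.80 TPM in WT batch 1, log2 fold change 2.60), and elt-3, a GATA factor of the epidermis, was lower there (-0.89).

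Markers of other material also moved in the mutants. Of 9 maternal and oocyte genes tested, 7 were higher in P37Stop, 9 in P183L and 9 in S441L, with none lower. Their sum ranged from 48.98 to 118 TPM in P37Stop, against 8.16 to 29.2 TPM in WT batch 2, and from 556 to 571 TPM in P183L and 62.7 to 65.2 TPM in S441L, against 19.1 to 23.6 TPM in WT batch 1. Early embryo genes summed to 8.40 to 14.1 TPM in P37Stop, against 2.73 to 5.27 TPM in WT batch 2, and to 65.7 to 68.1 TPM in P183L and 4.30 to 6.26 TPM in S441L, against 3.73 to 6.87 TPM in WT batch 1. Of those tested, 1 of 5 was higher in P37Stop and none lower. In P183L 5 of 6 were higher and 1 lower, and in S441L 1 of 5 was higher and 1 lower. The lower gene was med-2 in both. Among all genes tested, 12.7% were higher in P37Stop, 40.2% in P183L and 24.2% in S441L, and 40.2% were lower in P183L and 15.8% in S441L. The part of both sets of markers in the collagen values was not tested.

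The epidermis markers, the cells that make cuticle, were detected in every group, with none of the 8 genes at 0. Of these 8, none was called in P37Stop, 4 were higher and 1 lower in P183L, and 2 were higher in S441L, ajm-1 being carried by the transgenes of some strains. Against the 40.2% of all genes higher in P183L and 24.2% in S441L, these counts were near the background. In P183L 5 of 6 body wall muscle genes and 7 of 7 neuron genes were lower, and 1 muscle gene was higher. Of 7 intestine genes, 4 were lower in P37Stop, 4 lower and 1 higher in P183L and 3 higher in S441L, where 40.2% of all genes were lower in P183L, 5.9% lower in P37Stop and 24.2% higher in S441L. Their part in the collagen values was not tested either.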

How the data were processed

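Whole-animal poly(A) RNA of starved L1 larvae was sequenced by the authors as paired-end TruSeq libraries. Per the study's methods and the submitters' processing notes, fastp, STAR, Salmon, Picard and HTSeq were used with the ce11 build. The methods name HTSeq, after duplicate removal, for the counts. The deposited table was treated as estimated counts per gene made by the authors, since 3.7% of its values were not whole, which HTSeq's default counting does not give, and the step that made them is not given in the sources used here. In it 1 row without a gene ID, holding the total of 1 column (42569335, 100% of it), was left out. Ensembl release 115 (WBcel235) gave names, positions and exon lengths for 46857 gene IDs, with 54 unmatched.

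Counts were rounded to whole numbers. Genes passing filterByExpr (minimum count 10) were scaled by TMM and tested with edgeR 4.0.16 (quasi-likelihood test, R 4.3.3) across the whole table, each mutant with the WT libraries of its experiment, with Benjamini-Hochberg adjustment over all genes tested. Calls needed an adjusted p under 0.05 with a log2 change past 0.5 either way. The standard error (SE) is the log2 fold change divided by the square root of F. Differences between mutants' effects were contrasts in a fit of all 15 libraries. The study used DESeq2, tried here as an alternative (1.42.0) with limma voom (3.58.1). TPM used the summed length of merged exons. With 3 libraries against 3 an exact permutation test of a summed share cannot go below 0.1, so no p is given for it. Counting error and the spread between replicates are both in the errors given. Coordinates are 1-based.

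Named members were the 4 given with the family (col-8, col-42, col-80 and col-108), the 12 with the highest WT level, the largest changes without overlap of TMM-scaled CPM and with 10 CPM in the higher group, up to 6 called in 1 direction in all mutants, up to 3 called in opposite directions, a stage list and col-99. Others are listed by profile. Members and lists were chosen with earlier results of these data known. No sequence is printed.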

Additional observations from a re-analysis of the deposited data

Results flagged for a closer look

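For 7 members the change against WT differed between mutants by a test of the difference itself. The members tested were those given with the family, together with col-92, col-94 and col-106. The latter were picked from 22 members called in opposite directions in any pair of mutants. That choice used the same libraries. It set the difference between the oppositely called mutants beforehand, so the test of that difference in col-92, col-94 and col-106 is not further evidence. Over all 17180 genes of the fit used for the test, 40.5% passed an adjusted p of 0.05 for P37Stop minus S441L and 70.4% for P37Stop minus P183L. Such differences were thus common. Differences below are of log2 fold changes, and those of P183L and S441L are the fold change of P183L against S441L.

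In col-42 P37Stop minus S441L was 0.64 (SE 0.19) and P37Stop minus P183L 9.15 (SE 0.23), and P183L was -8.53 against S441L. The values in col-80 were -0.51 (SE 0.16), 9.93 (SE 0.25) and -10.45. Both genes were lower in all 3 mutants, so these differences are of size. In col-8 they were 5.47 (SE 0.35), 7.76 (SE 0.40) and -2.30, with a WT batch 2 level already below that of WT batch 1.

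In col-94 the values were -1.58 (SE 0.18), 5.80 (SE 0.20) and -7.40, and in col-92 -2.05 (SE 0.22), 5.14 (SE 0.32) and -7.20. Both have split reads. For col-108 P37Stop minus P183L was 6.57 (SE 0.65) and P183L was -6.02 against S441L, and for col-106 these were 6.86 (SE 0.50) and -6.17. P37Stop minus S441L did not pass in either gene by edgeR's quasi-likelihood test. It was 0.57 (SE 0.51, adjusted p = 0.408) in col-108 and 0.70 (SE 0.40, adjusted p = 0.178) in col-106. In col-106 and col-108 P183L had at most 4 counts in a library, and fitted values of so few counts depend on the prior count.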

How the results depend on the processing

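The alternatives were other scalings, filters and tools, all libraries in 1 fit, a replicate block, a fold limit of 1, each library left out, and WT batch 1 as the control of P37Stop. Over 210 named member comparisons the alternatives other than the fold limit gave 3162 values. Of these, 3042 kept their call or lack of one, 80 lost a call, 34 gained one and 6 turned round. A change of sign was counted as turning round only where a call was involved, and otherwise as kept. All 6 were in P37Stop set against WT batch 1, namely col-3 (0.35), col-8 (-2.33), col-117 (0.12), col-142 (0.45), col-150 (0.055) and col-181 (-2.31), and 50 members were then called higher and 23 lower of 110 tested. With a fold limit of 1, 6 members were lower in P37Stop and 16 in S441L. With a minimum count of 50, 19 were higher in P183L against S441L.

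Total counts as the scaling moved the median of all genes by 0.24 in P37Stop, 0.53 in P183L and 0.21 in S441L, and gave 35 members higher and 14 lower in P37Stop, a split of 71.4% higher against 60.8% with TMM. There col-3, col-39, col-107, col-142 and col-150 were no longer called in P37Stop, nor col-80, col-98, col-103 and col-142 in S441L (-0.49 to -0.34). As a share of counts the family took 1.88% in P37Stop, 2.66% in WT batch 2, 0.326% in P183L, 2.39% in S441L and 1.86% in WT batch 1. Without members with split reads it took 0.877%, 1.13%, 0.333%, 0.948% and 1.13% of TPM in these groups. At a limit of 5 TPM, 49 members were detected in both WT groups.

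Leaving out 1 library gave 21 to 30 members higher and 16 to 21 lower in P37Stop, 36 to 38 and 60 to 63 in P183L, 53 to 57 and 21 to 26 in S441L, 31 to 33 and 74 to 78 in P183L against S441L, and 34 to 42 and 19 to 27 in WT batch 2 against WT batch 1. The family's share then ranged from 2.21 to 2.40% in P37Stop, 3.07 to 3.36% in WT batch 2, 0.428 to 0.449% in P183L, 3.00 to 3.16% in S441L and 2.13 to 2.41% in WT batch 1.

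Replicate numbers did not pair the libraries, with correlations of same-numbered deviations from -0.1 to 0.099. With the replicate block 29 members were higher and 19 lower in P37Stop, 36 and 61 in P183L, and 56 and 24 in S441L, and col-150 (-0.73, adjusted p = 0.0688) and col-157 (1.25, adjusted p = 0.0534, edgeR quasi-likelihood for both) lost their P37Stop calls.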
